A study of Homo sapiens with 6 samples.

Results

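The distal long arm of human chromosome 8 (distal 8q) was taken as every deposited peak on that chromosome whose midpoint lay beyond position 100000000 of hg19, the part that carries MYC. It held 67 of 1510 KLF5 peaks of Calu-3, 51 of 3262 KLF5 peaks of 16HBE14o- and 1248 of 69386 CEBPB peaks of Calu-3, or 1366 of 74158 peaks in all. The lists came from chromatin immunoprecipitation and sequencing (ChIP-seq) of 6 untreated samples in 3 groups of 2, all grown in DMEM with fetal bovine serum. Calu-3 is a lung adenocarcinoma line, 16HBE14o- is an immortalised bronchial epithelial line, and both are labelled as bronchial epithelial cells. The first Calu-3 KLF5 sample was made with a rabbit antibody against KLF5, and the other Calu-3 sample and both 16HBE14o- samples with a single commercial antibody, so line and antibody cannot be told apart. CEBPB was measured with a different commercial antibody, in Calu-3 alone among the samples analysed here. Peak lists do not let the labelled cell type be checked against its markers, and the labels do not state that paired samples are from independent cultures.

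KLF5 is a Krüppel-like zinc finger transcription factor that binds GC-rich and CACCC-type elements and is known for its role in proliferating epithelia, the airway among them. CEBPB is a basic leucine zipper factor of inflammatory and differentiation programmes. Distal 8q carries MYC, the growth-control transcription factor, and a gene-rich end with several genes of the epithelial cytoskeleton and cell surface. Peaks are binding sites called from enriched reads, and a site missing from a list at unknown depth does not show that binding was absent.

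The region was chosen by position, with the density of peaks along the chromosome already known, so counts along it are given as a description and no test was run. A list joins the 2 samples of a group, which leaves no measure of error between samples. Shares carry exact (Clopper-Pearson) 95% confidence intervals, which cover counting error only, and the read depth behind the peaks is unknown. The strength of a peak is given as the percentile of the authors' signal within its own list, with 100 for the highest. Gene names mark the surroundings of a site and come from general knowledge of where these genes lie, since no annotation of hg19 was used here. The 16 genes placed in this way came in the same order along the sites as in RefSeq's GRCh38.p14 gene table. Whether a site was exonic, intronic or at a gene start was not analysed here.

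KLF5 peaks were more densely placed in distal 8q than in the rest of the chromosome in both lines. Against the other bins of the genome this held for Calu-3, with a mean of 1.43 peaks per distal 1 Mb bin and 0.486 elsewhere. In 16HBE14o- both means were close, at 1.09 and 1.08, and the rest of chromosome 8 was lower at 0.54. Distal 8q made up 31.7% of the chromosome between the first and the last base covered by any list. Distal 8q held 67 of the Calu-3 KLF5 peaks of chromosome 8 (64.4%, 54.4 to 73.6) and 51 of the 16HBE14o- KLF5 peaks (48.6%, 38.7 to 58.5). CEBPB lay closer to an even spread, with 1248 of 3451 peaks (36.2%, 34.6 to 37.8). Density was 1.45 Calu-3 KLF5 peaks per Mb in distal 8q and 0.371 in the rest of the chromosome. For 16HBE14o- KLF5 it was 1.10 and 0.541 per Mb, and for CEBPB 27.0 and 22.1 per Mb. As a share of its whole list, distal 8q held 4.44% of Calu-3 KLF5 peaks (3.45 to 5.60), 1.56% of 16HBE14o- KLF5 peaks (1.17 to 2.05) and 1.80% of CEBPB peaks (1.70 to 1.90).

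At the scale of 1 Mb the KLF5 peaks were concentrated in few bins. Calu-3 KLF5 peaks lay in 20 of 47 distal bins (42.6%, 28.3 to 57.8), in 18 of 100 bins of the rest of chromosome 8 and in 745 of 2968 bins outside distal 8q (25.1%). 16HBE14o- KLF5 peaks lay in 16 of 47 distal bins (34%, 20.9 to 49.3), in 32 of 100 in the rest of the chromosome and in 36.3% of bins outside distal 8q. The median was 0 peaks per bin for both KLF5 lists in distal 8q and outside it. For CEBPB the median was 26 peaks per distal bin, 17 in the rest of the chromosome and 22 over all other bins. The fullest Calu-3 KLF5 bin ran from 145 to 146 Mb with 16 peaks, a number reached by 1 of the 2968 bins elsewhere. The bin from 144 to 145 Mb followed with 13 peaks, then 126 to 127 Mb with 8, and the bins from 143 and 146 Mb with 4 each. In 16HBE14o- the same terminal bins led, with 11 peaks from 144 to 145 Mb and 10 from 145 to 146 Mb, followed by 8 from 102 to 103 Mb, 4 from 101 to 102 Mb and 3 from 128 to 129 Mb. Counts as high as the 11 and 10 of the terminal bins were reached by 35 and 41 bins elsewhere. The fullest CEBPB bins held 80 peaks from 137 to 138 Mb, 62 from 126 to 127 Mb, 60 from 138 to 139 Mb and 58 from 132 to 133 Mb. The bins from 122 to 123 Mb and from 144 to 145 Mb followed with 54 each. Within distal 8q the bins from 126 and 144 Mb were thus among the fullest for both Calu-3 KLF5 and CEBPB. CEBPB counts of 80, 62, 60, 58 and 54 were reached by 5, 44, 55, 66 and 91 of the 2968 bins elsewhere.

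**Figure D1:**
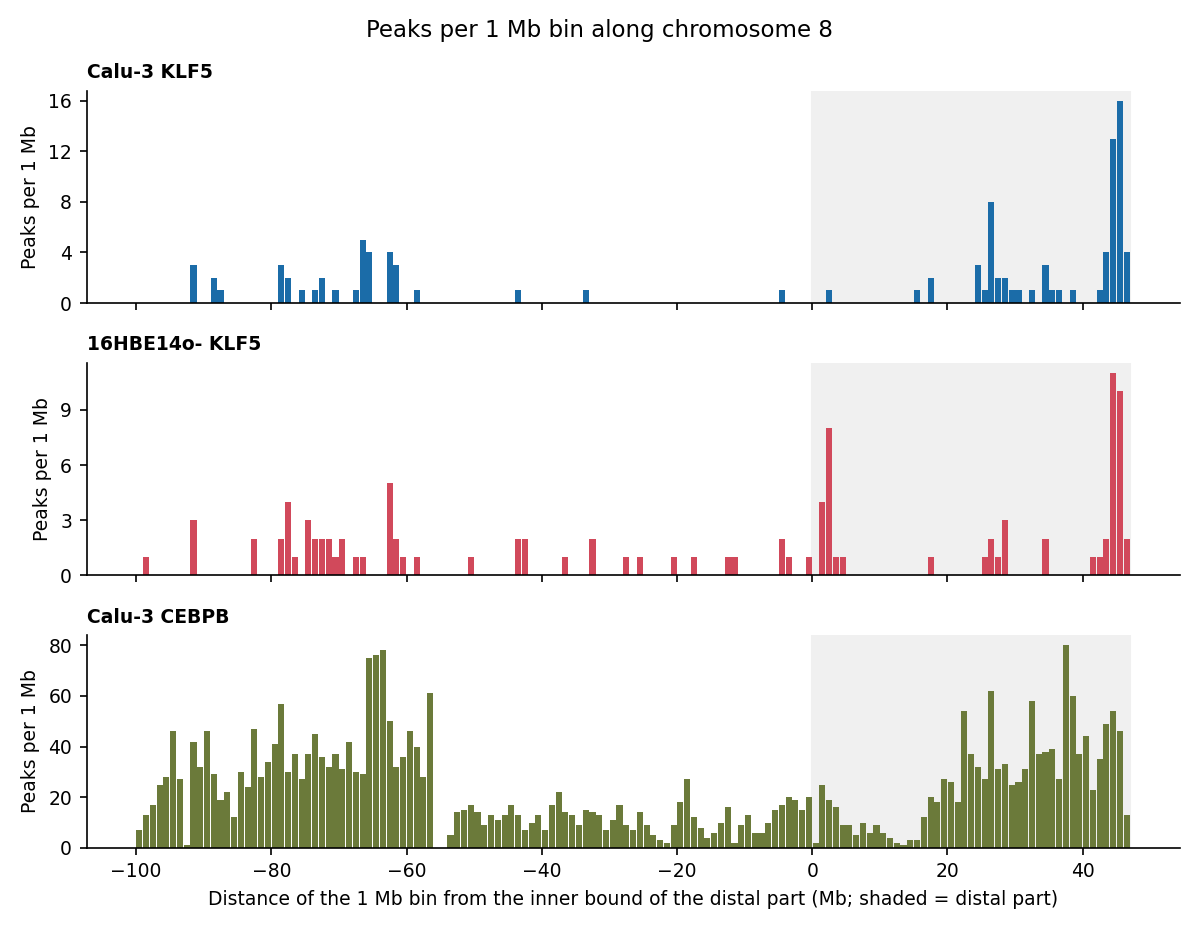
Number of peaks in each 1 Mb bin of chromosome 8 (y axis) against the distance of the bin from the inner bound of distal 8q in Mb (x axis), with 1 panel per list and distal 8q shaded. KLF5 peaks of both lines pile up in the last bins, at up to 16 and 11 peaks per bin, while CEBPB peaks reach 80 in a bin further in.

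The signal ranks of distal KLF5 peaks were spread over the whole range of their lists. Calu-3 KLF5 peaks had a median percentile of 40.9 (exact order-statistic interval 31.3 to 61.7) in distal 8q and 49.9 (32.3 to 67.0) in the rest of the chromosome. 16HBE14o- KLF5 peaks had medians of 57.6 (40.6 to 68.2) and 51.0 (42.8 to 64.3). These intervals overlapped in both lines. The order of the medians turned in Calu-3 among peaks at or above the median signal, at 55.8 and 48.4, and in 16HBE14o- without the last 3 Mb, at 41.4 and 51.0. CEBPB peaks had a median of 40.8 (36.8 to 43.6) in distal 8q and 47.7 in the rest of the chromosome, but ranked by the authors' q-values the order was turned, at 52.0 and 49.4. Taken bin by bin, the median percentile of Calu-3 KLF5 ran from 5.36 to 91.9 over 20 distal bins, and 6 of them lay above 50. In the rest of chromosome 8, 9 of 18 bins lay above 50. In 16HBE14o-, 8 of 16 distal bins and 16 of 32 other bins lay above 50.

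Of the 47 distal bins 12 held KLF5 peaks of both lines, 8 of Calu-3 only, 4 of 16HBE14o- only and 23 of neither. Of the 100 bins of the rest of chromosome 8 these counts were 13, 5, 19 and 63. The authors' q-value was 0.05 or less for 55 of the 67 Calu-3 peaks (82.1%) and 86.6% of that list, and for 40 of the 51 16HBE14o- peaks (78.4%) and 78.9% of that list. For CEBPB this held for 597 of the 1248 distal peaks (47.8%) and 46.3% of that list.

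Distal 8q was described in 4 stretches, bounded by its longest run without KLF5 peaks and by its last 3 Mb. These bounds were set after the peaks had been seen, so the numbers of peaks per stretch are given without intervals. Intervals given further on for shares within a stretch cover counting error only. They allow neither for this choice of bounds nor for entries that overlap each other. The inner stretch, up to 104511951, held 14 of the 51 16HBE14o- peaks (27.5%), 4 of them a chain of overlapping entries, and 1 of the 67 Calu-3 peaks (1.49%). From 104511952 to 115833744, the run of 11.3 Mb that was chosen for this, neither line had a KLF5 peak. The middle stretch, on to 143293710, held 29 Calu-3 peaks (43.3%) and 12 16HBE14o- peaks (23.5%). The last 3 Mb, which make up 6.48% of distal 8q, held 37 Calu-3 peaks (55.2%) and 25 16HBE14o- peaks (49.0%). CEBPB had 15.3 peaks per Mb in the inner stretch, 5.21 in the KLF5-free run, 35.3 in the middle stretch and 50 in the last 3 Mb. Calu-3 KLF5 had 0.222 per Mb in the inner stretch, from 1 peak, 1.06 in the middle stretch and 12.3 in the last 3 Mb. 16HBE14o- KLF5 had 3.10 in the inner stretch, 0.437 in the middle stretch and 8.33 in the last 3 Mb. In the KLF5-free run both KLF5 lists had 0 by the choice of its bounds.

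The last 3 Mb made up 2.05% of the chromosome and held 35.6% of its Calu-3 KLF5 peaks, 23.8% of its 16HBE14o- KLF5 peaks and 4.35% of its CEBPB peaks. This end is rich in genes. In the order of RefSeq's GRCh38.p14 table, 91 of the 715 protein-coding genes of chromosome 8 (12.7%) follow from PSCA onwards, and 224 (31.3%) from VPS13B, a gene at the inner bound of distal 8q. The part of gene density in the placement of the peaks was not tested. The peak lists hold no measure of DNA copy number, so its part was not tested either. With the last 3 Mb left out, distal 8q held 30 of 67 Calu-3 KLF5 peaks of the chromosome (44.8%) and 26 of 80 16HBE14o- peaks (32.5%), on 30.3% of the length.

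**Figure D2:**
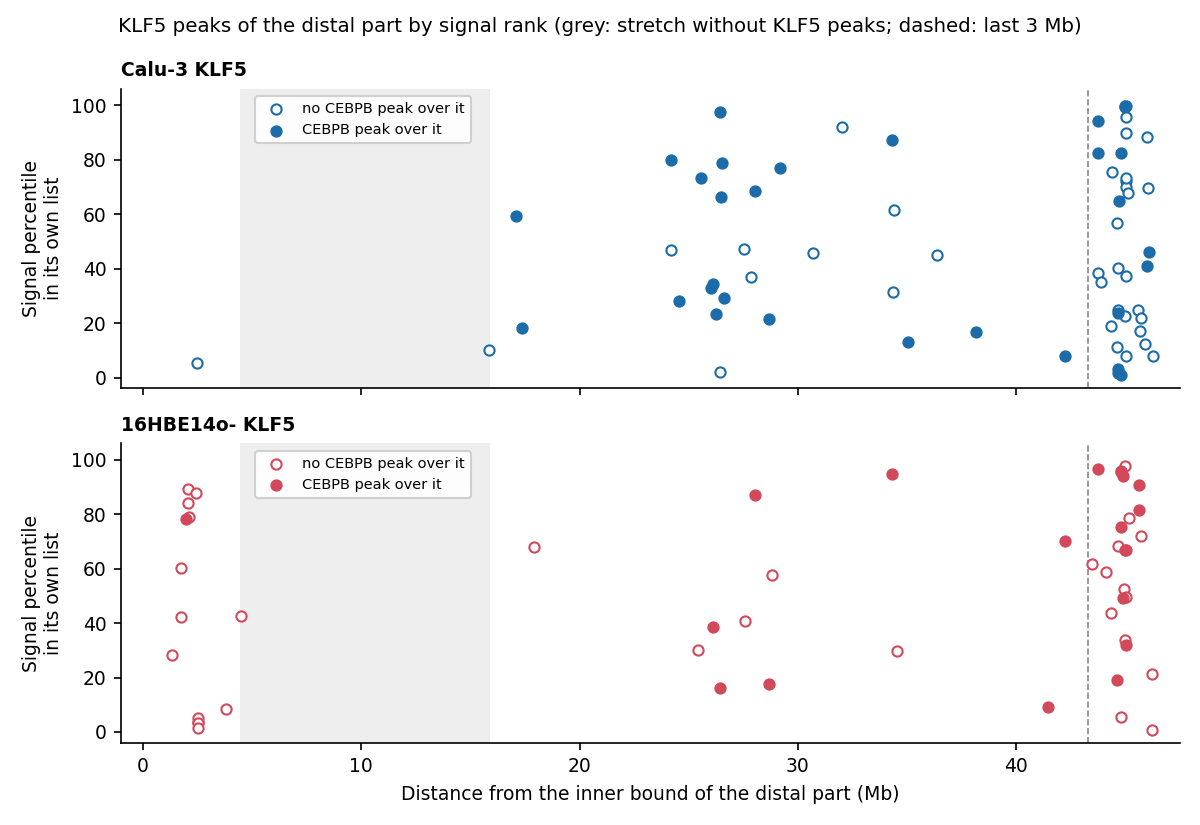
Signal percentile of each distal KLF5 peak within its own list (y axis) against its distance from the inner bound of distal 8q in Mb (x axis), for Calu-3 above and 16HBE14o- below. Filled points have a CEBPB peak over them, the grey band is the run of 11.3 Mb without KLF5 peaks, and the dashed line opens the last 3 Mb, where 37 and 25 peaks lie.

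Joining KLF5 peaks of both lines that lay at most 50 kb apart gave 52 loci. Of these, 32 held a single peak, 12 held 2 or 3 peaks and 8 held 4 or more. The 8 fullest loci held 59 of the 118 KLF5 peaks, 34 from Calu-3 and 25 from 16HBE14o-. Calu-3 alone was present at 23 loci, 16HBE14o- alone at 14 and both lines at 15, of which 11 had an overlapping pair of peaks. The loci with 4 or more peaks were at GRHL2 in the inner stretch, at TRIB1 in the middle stretch, and in the last 3 Mb at PSCA, from 144623318 to 144718314, at FAM83H, at PLEC and its neighbours, from 145634551 to 145743493 and from 145980864 to 146078619. At GRHL2 the count included a chain of 4 overlapping 16HBE14o- entries of low rank.

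The fullest locus, with 20 KLF5 peaks from 144897856 to 145047920, covered the plakin genes EPPK1 and PLEC with SCRIB and PUF60. PLEC encodes plectin, the linker between keratin filaments and hemidesmosomes, and EPPK1 encodes epiplakin, a keratin-binding relative. The PLEC group itself held 10 Calu-3 and 6 16HBE14o- KLF5 peaks within 39.8 kb, from 145008084 to 145047920. Its Calu-3 peaks ranked from percentile 8.01 to 99.8 with a median of 81.7, and 8 of the 10 lay above 70. The highest Calu-3 KLF5 peak of distal 8q, at 145014509 to 145014606, had a signal of 112 and was number 4 of its whole list, at percentile 99.8. The next, at 145013774 to 145013928, had a signal of 108 at percentile 99.6, and the one after it, at 145010724 to 145011003, a signal of 101 at percentile 99.3. The highest entry was 98 bp wide and the next 155 bp, against a median of 280 bp in the whole list. A further peak at 145022667 to 145022946 lay at percentile 95.6 and one at 145025886 to 145026165 at 89.9. Thus 4 of the 5 distal Calu-3 peaks above percentile 95 were in the PLEC group. Without the locus, 1 of 56 distal Calu-3 peaks (1.79%) lay above 95, against 5 of 67 (7.46%) with it.

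16HBE14o- had its highest distal peak in the same group, at 145010746 to 145011089, with a signal of 73.6 at percentile 97.9. The other 5 16HBE14o- peaks there ranked lower, from percentile 32.1 to 66.8. Of the 6 peaks 4 overlapped a Calu-3 peak, where the whole 16HBE14o- list had 11.3%. These 4 pairs included each of the 4 highest Calu-3 peaks. At the highest Calu-3 site the 16HBE14o- peak stood at percentile 49.7, and at the second at 66.8. The group held 5 CEBPB peaks, at percentiles 5.83 to 91.5 of their list. A CEBPB peak overlapped 1 of the 10 Calu-3 peaks, at percentile 54.1, and 2 of the 6 16HBE14o- peaks. Over the whole lists 43.7% of Calu-3 and 22.4% of 16HBE14o- KLF5 peaks had a CEBPB peak.

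**Figure D3:**
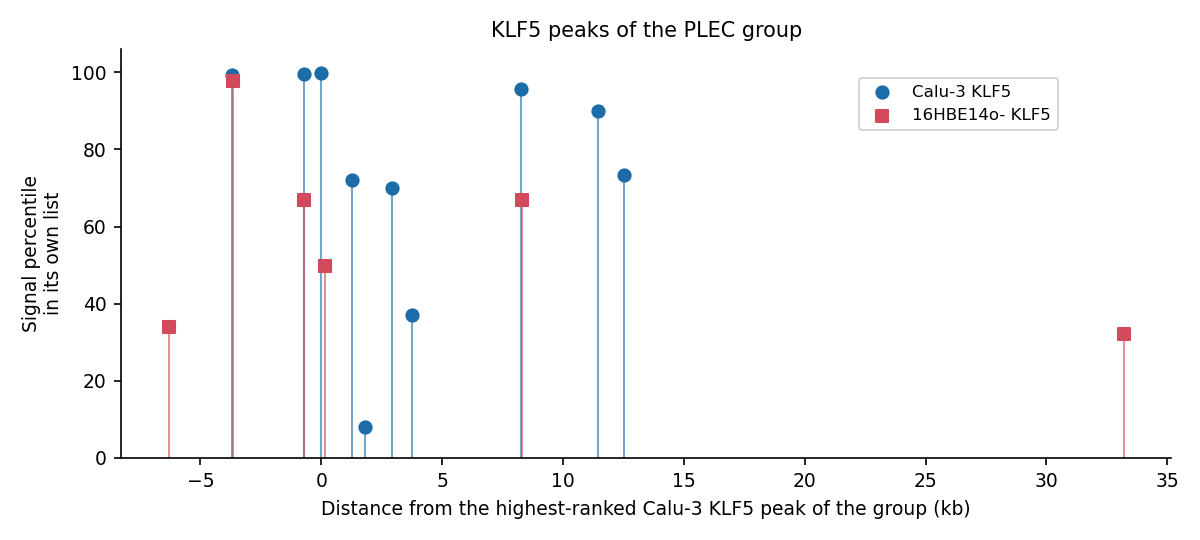
Signal percentile of each KLF5 peak of the PLEC group in its own list (y axis) against its distance in kb from the highest-ranked Calu-3 peak of the group (x axis), with circles for Calu-3 and squares for 16HBE14o-. Of the 10 Calu-3 peaks 4 lie above percentile 95, and the 16HBE14o- peak beside the leftmost of them stands at 97.9.

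The neighbours of PLEC in this locus held 3 16HBE14o- peaks and 1 Calu-3 peak. SCRIB, a scaffold of epithelial polarity, had a 16HBE14o- peak at 144897856 to 144898199 at percentile 94.2, with a CEBPB peak of percentile 74.1 over it. PUF60, a splicing factor gene, had a 16HBE14o- peak at percentile 49.3, and EPPK1 had one at 52.5. The Calu-3 peak lay at 144980160 to 144980439 and percentile 22.7.

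FAM83H, which encodes a protein that organises keratin filaments, had 4 16HBE14o- peaks and 2 Calu-3 peaks within 5.97 kb. The 16HBE14o- peaks at 144815885 to 144816228 and 144821338 to 144821681 stood at percentiles 95.7 and 95.4, and those at 144820701 and 144816088 at 75.4 and 5.58. In Calu-3 the site at 144821372 to 144821651 stood at percentile 82.6, and a second entry that overlapped it stood at 1.06. Both lines thus ranked the site at 144821338 high, and the one at 144815885 was listed in 16HBE14o- only. PSCA, which encodes an anchored surface protein of the LY6 family, had a shared site at 143758447 to 143758790, which ranked at 82.5 in Calu-3 and at 96.6 in 16HBE14o-. The same locus held number 6 of the distal Calu-3 peaks, at 143751289 to 143751568 and percentile 94.4, which no 16HBE14o- peak overlapped.

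Between PSCA and FAM83H, the locus from 144623318 to 144718314 held 8 Calu-3 and 2 16HBE14o- peaks. The Calu-3 percentiles ran from 1.72 to 64.7 with a median of 24.4, and the 2 16HBE14o- peaks, both shared, stood at 19.1 and 68.2. The locus from 145634551 to 145743493 held more 16HBE14o- than Calu-3 peaks. Its 3 16HBE14o- peaks stood at percentiles 72.1 to 90.7 and its 2 Calu-3 peaks at 17.1 and 21.7, none of them shared. Its highest, at 145653793 to 145654136, was number 7 among distal 16HBE14o- peaks. The last locus with 4 peaks, from 145980864 to 146078619, held Calu-3 peaks only, at percentiles 40.9 to 88.2, the highest of them at 145980864 to 145981143.

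In the inner stretch the KLF5 sites were almost all those of 16HBE14o-. GRHL2 encodes a grainyhead-like transcription factor that maintains epithelial identity. The GRHL2 locus held 5 16HBE14o- peaks and 1 Calu-3 peak. The 4 16HBE14o- entries at GRHL2 itself, from 102505669 to 102506747, overlapped each other in a chain and stood at percentiles 1.62 to 5.00. The higher 16HBE14o- peak of the locus, at 102449282 to 102449625, stood at percentile 87.6, and the Calu-3 peak, at 102467121 to 102467400, at 5.36. Nearby, 16HBE14o- had peaks at 102039590 to 102039933, 102076000 to 102076343 and 102092973 to 102093316, at percentiles 89.1, 84.2 and 79.1, with no Calu-3 peak. YWHAZ, which encodes an adaptor protein of the 14-3-3 family, had a 16HBE14o- peak at percentile 78.4. PABPC1, the gene of a poly(A)-binding protein, had one at 42.2. The 16HBE14o- peak just inside the bound of distal 8q stood at percentile 28.1 and the one just outside at 56.5. The corresponding Calu-3 peaks stood at 5.36 and 40.6.

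The middle stretch held the MYC and TRIB1 surroundings and, in Calu-3, KLF5 sites that mostly carried CEBPB. TRIB1 encodes a pseudokinase known for directing CEBP proteins to degradation. The 1 Mb bin around TRIB1 held 8 Calu-3 KLF5 peaks, and 7 of them had a CEBPB peak, at a median CEBPB percentile of 99.3. Over the whole list 43.7% of Calu-3 KLF5 peaks had a CEBPB peak. It stood above percentile 90 at 6 of the 7 in this bin and at 65.9% of such sites over the whole list. The site at TRIB1, at 126442312 to 126442591, ranked number 4 among distal Calu-3 KLF5 peaks, with a signal of 67.1 at percentile 97.7. The 16HBE14o- peak there, at 126442103 to 126442446, had a signal of 22.9 at percentile 16.0, the widest difference in rank among shared sites of this stretch. The CEBPB peak over both stood at percentile 99.9. The locus also held Calu-3 peaks at 126464275 to 126464554, at percentile 66.4, and at 126423140 to 126423419, at 2.19. In the same bin, SQLE, the squalene epoxidase gene of sterol synthesis, had a Calu-3 peak at percentile 32.9. WASHC5, the gene of a subunit of an endosomal actin regulator, had a site of both lines, at 34.3 in Calu-3 and 38.7 in 16HBE14o-. Of the 62 CEBPB peaks of this bin 22 (35.5%) stood above percentile 90, against 11.1% over distal 8q.

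The bin that holds MYC, from 128 to 129 Mb, had 2 Calu-3 and 3 16HBE14o- KLF5 peaks. Both Calu-3 peaks were shared and had CEBPB, where the whole list had 23.6% shared and 43.7% with CEBPB. The site at 128048093 to 128048449 ranked at 68.7 in Calu-3 and at 87.0 in 16HBE14o-, with CEBPB at 99.2. The site at 128681061 to 128681440 ranked low in both, at 21.5 and 17.7, with CEBPB at 98.5. The third 16HBE14o- peak, at 128812991 to 128813334 near PVT1, a long non-coding RNA gene beside MYC, stood at percentile 57.6 without a Calu-3 KLF5 or CEBPB peak. Of the 33 CEBPB peaks of this bin 10 (30.3%) stood above percentile 90, against 11.1% over distal 8q.

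NDRG1, a gene of stress responses and epithelial differentiation, had a site where all 3 lists ranked high together. A FAM83H site in the last 3 Mb did so too, at 82.6 in Calu-3 KLF5, 95.4 in 16HBE14o- KLF5 and 90.8 in CEBPB. At NDRG1 the Calu-3 KLF5 peak at 134309558 to 134309837 had a signal of 42.2 at percentile 87.4. The 16HBE14o- peak at 134309521 to 134309864 had a signal of 57.9 at percentile 94.7. The CEBPB peak there, at 134309370 to 134310037, was the highest of distal 8q, with a signal of 30.5, and stood at rank 23 of its whole list. The next CEBPB peaks by signal lay at 119200042 to 119200337 with no KLF5 peak, at 117070415 to 117070788 and 124553334 to 124553762 with a Calu-3 KLF5 peak, and at TRIB1. The third of these, at FBXO32, the gene of a ubiquitin ligase subunit, had its Calu-3 KLF5 peak at percentile 28.2. FAM83A, which encodes a signalling scaffold, had a Calu-3 KLF5 peak at percentile 79.8 with CEBPB at 99.1. Number 7 of the distal Calu-3 peaks, at 132021334 to 132021613 and percentile 91.9, had neither a 16HBE14o- KLF5 nor a CEBPB peak. A Calu-3 peak at 129188938 to 129189217, at percentile 77.2, had CEBPB at 97.9.

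Over distal 8q, 30 of 67 Calu-3 KLF5 peaks had a CEBPB peak (44.8%, 32.6 to 57.4), where the whole list had 43.7%. In the middle stretch the count was 19 of 29 (65.5%, 45.7 to 82.1), and in the last 3 Mb it was 11 of 37 (29.7%, 15.9 to 47). The intervals overlapped only from 45.7 to 47, and the difference between these stretches was not tested. Without the PLEC locus the last 3 Mb had 10 of 26 (38.5%). CEBPB peaks themselves were denser in the last 3 Mb than in the middle stretch. For 16HBE14o- KLF5, 19 of 51 distal peaks had a Calu-3 CEBPB peak (37.3%, 24.1 to 51.9), where the whole list had 22.4% and the rest of chromosome 8 had 33.3%. The 16HBE14o- counts were 1 of 14 in the inner stretch, 7 of 12 in the middle stretch and 11 of 25 in the last 3 Mb.

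The CEBPB peaks at these sites ranked far higher in the middle stretch. At Calu-3 KLF5 sites their median percentile was 99.1 in the middle stretch and 33.5 in the last 3 Mb. At 16HBE14o- KLF5 sites it was 98.9 and 54.1. A CEBPB peak above percentile 90 was found at 16 of 19 Calu-3 KLF5 sites with CEBPB in the middle stretch (84.2%, 60.4 to 96.6) and at 2 of 11 in the last 3 Mb (18.2%, 2.28 to 51.8), where the whole list had 65.9%. Both of the latter were overlapping entries under a single CEBPB peak at FAM83H. For 16HBE14o- the counts were 6 of 7 and 1 of 11, where the whole list had 25.7%, and the 6 were all sites shared with Calu-3. All CEBPB peaks of the stretches also ranked lower in the last 3 Mb, with a median of 28 against 39 in the middle stretch. Ranked by q-value, the CEBPB peaks at Calu-3 KLF5 sites had medians of 99.6 and 53.0, and all CEBPB peaks 50.7 and 45.9.

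**Figure D4:**
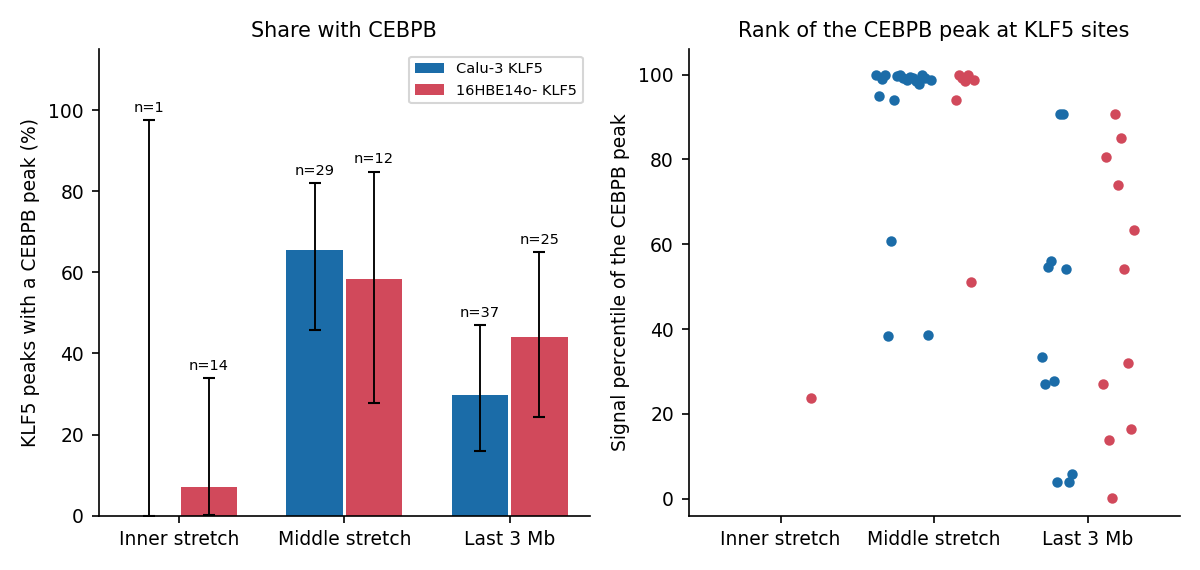
Left, share of distal KLF5 peaks with a CEBPB peak in % (y axis) in 3 stretches of distal 8q (x axis), with exact 95% intervals as bars and the number of KLF5 peaks above them; right, signal percentile of the CEBPB peak at each such KLF5 site. In the middle stretch 16 of 19 Calu-3 and 6 of 7 16HBE14o- sites have a CEBPB peak above percentile 90, and in the last 3 Mb 2 of 11 and 1 of 11.

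Seen from CEBPB, 42 of 1248 distal peaks overlapped a peak of either KLF5 list (3.37%, 2.44 to 4.52), where the whole list had 1.76%. Calu-3 KLF5 accounted for 30 of them, where the whole list had 0.938%, and 16HBE14o- KLF5 for 21, where it had 1.03%. The count was 20 of 970 in the middle stretch and 21 of 150 in the last 3 Mb (14%). Of the 20 in the middle stretch 16 were above percentile 90, and of the 21 in the last 3 Mb 1 was. Over distal 8q, 17 of the 139 CEBPB peaks above percentile 90 (12.2%, 7.29 to 18.9) and 25 of the 1109 lower ones (2.25%, 1.46 to 3.31) had KLF5. Over the whole list these shares were 7.82% and 1.09%.

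KLF5 sites listed in both lines formed 16 pairs of peaks, 6 in the middle stretch, 10 in the last 3 Mb and 0 in the inner stretch. They covered 16 of 67 Calu-3 peaks (23.9%, 14.3 to 35.9), where the whole list had 23.6%, so the share was near the background. They covered 15 of 51 16HBE14o- peaks (29.4%, 17.5 to 43.8), where the whole list had 11.3% and the rest of chromosome 8 had 14.8%. Among 16HBE14o- peaks the share was 50% in the middle stretch and 36% in the last 3 Mb. The number of Calu-3 peaks within reach was also higher in distal 8q, and its part in this share was not tested.

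The 2 lists ranked many of these sites differently. Shared Calu-3 peaks had a median percentile of 75.6 and those of Calu-3 alone 38.5, while in 16HBE14o- the medians were 66.8 and 50.9. The Calu-3 difference rested on the PLEC locus: without it the medians were 37.3 for 12 shared peaks and 37.7 for 44 others. In 16HBE14o- they were then 68.2 and 57.6. Calu-3 gave the higher percentile at 6 pairs and 16HBE14o- at 10. The summits of a pair lay 2 to 202 bp apart, with a median of 54 bp. Besides TRIB1, ranks were far apart at 142249482 to 142249985, at 7.88 in Calu-3 and 70.1 in 16HBE14o-, and at the weak second Calu-3 entry at FAM83H. The remaining shared sites of the last 3 Mb were at 144349397 to 144349740, at 19.0 and 43.7, at 144623318 to 144623825, at 11.2 and 19.1, and at 144655938 to 144656324, at 40.2 and 68.2. A CEBPB peak lay over at least 1 peak of 11 of the 16 pairs. It was present at each of the 6 pairs of the middle stretch, at percentiles 94.1 to 99.97, and at 5 of the 10 pairs of the last 3 Mb, none above 90.8. The 2 pairs at FAM83H lay under the same 16HBE14o- peak and the same CEBPB peak. CEBPB overlapped the Calu-3 peak itself at 10 of the 16 pairs, where the whole list had 143 of 356 shared Calu-3 peaks with CEBPB.

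**Figure D5:**
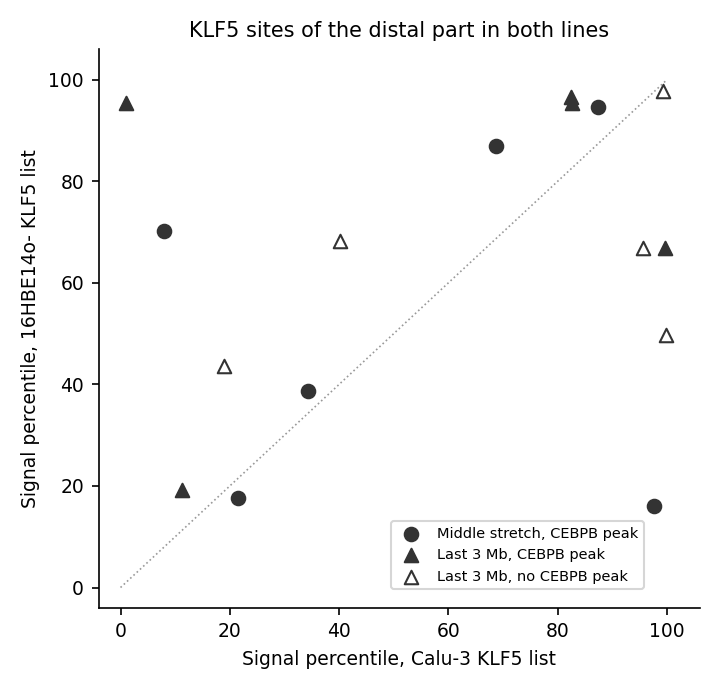
Signal percentile of each distal KLF5 site found in both lines in the Calu-3 list (x axis) and the 16HBE14o- list (y axis), with circles for the middle stretch, triangles for the last 3 Mb and filled symbols where a CEBPB peak lay over the site. Of the 16 pairs 6 lie below the dotted line of equal rank, TRIB1 at the lower right among them, and all 6 circles are filled.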

How the data were processed

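ChIP-seq peak lists of KLF5 in Calu-3 and 16HBE14o- and of CEBPB in Calu-3 were used, 1 list per group, each made from both samples, per the series' design text. Per the file headers, positions are on hg19, which the submitters' processing notes also name, and the peaks passed an irreproducible discovery rate (IDR) step. The aligner, peak caller, control and filters are not given in the sources used here. The deposited signal and score of each peak, set by the authors, have no stated normalization. The deposited −log10 q-values were read by their place in the narrowPeak format.

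Signals were turned into percentiles within each list, with ties sharing a rank. An overlap needed 1 bp or more. Entries that overlapped another of their own list (2 of 67 in Calu-3 and 8 of 51 in 16HBE14o- KLF5) were not merged. The script for overlaps and intervals was tested on simulated data. Python 3.11.15, numpy 2.4.6, scipy 1.17.1, pandas 2.3.3 and matplotlib 3.10.9 were used.

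The region, its members and the lists were chosen with earlier results of these data known, and the 4 stretches were set after the peaks had been seen. Named sites are the 10 highest KLF5 peaks of each list, every shared site, every locus with 4 or more KLF5 peaks, the 5 highest CEBPB peaks, the 5 fullest bins and the bins of MYC and TRIB1. Other named genes and sites were chosen after their values were seen. Gene lists planned for an hg19 annotation were not used here. Sequences are not shown.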

Additional observations from a re-analysis of the deposited data

How the results depend on the processing

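Of 135 values recomputed for 18 results, 30 left the 95% interval of the reported value or, for counts, moved by more than 1.5 times. They are given here. No paired analysis was possible because a list joins the 2 samples of a group and holds no values of single samples. Leaving out a sample was not possible for the same reason. Without the last 3 Mb, distal 8q held 2.04% of the Calu-3 KLF5, 0.803% of the 16HBE14o- KLF5 and 1.59% of the CEBPB list, and 44.8%, 32.5% and 33.3% of their chromosome 8 peaks. The share of Calu-3 KLF5 peaks with CEBPB was then 63.3%, and that of CEBPB peaks with KLF5 1.91%. With the inner bound moved 5 Mb towards the end of the arm, 16HBE14o- KLF5 had 1.13% of its list and 35.2% of its chromosome 8 peaks in the region, and CEBPB 1.70% and 34.1%, since the inner stretch was left out. With it moved 5 Mb towards the centromere, CEBPB had 1.93% and 38.8%. Among peaks at or above the median signal, CEBPB had 1.49% of its list, 33% of its chromosome 8 peaks, a median percentile of 54.4 (rest of the chromosome 50.9), 11 peaks per bin and 2.27% with KLF5. Limiting all lists to q-values up to 0.05 also gave 11 CEBPB peaks per bin, and 16HBE14o- KLF5 then had CEBPB at 22.5% of peaks. Ranked by q-value, CEBPB had a median percentile of 52.0. With summits within 100 bp, 31.3% of Calu-3 KLF5 peaks had CEBPB and 2.24% of CEBPB peaks had KLF5. With lists of 1510 peaks each, CEBPB lay at 20.9% of Calu-3 and 11.5% of 16HBE14o- KLF5 peaks, and 37.8% of CEBPB peaks had KLF5. Bins of 2 Mb gave a median of 0.5 KLF5 peaks per Mb in Calu-3 and 0.25 in 16HBE14o-. Joining at 10 kb gave 79 loci in place of 52. The cause of the other moves was not tested. Leaving out the PLEC locus, chosen after its values were seen, kept the shares of lists, of chromosome 8 and of overlapping peaks and the overall median percentiles recomputed without it (14 values) within their intervals. It moved the median percentile of shared Calu-3 KLF5 peaks from 75.6 to 37.3 and the share of Calu-3 peaks above percentile 95 from 7.46% to 1.79%.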
